A study of Mus musculus with 2 samples.

Results

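The genes described are 6 ligands of the epidermal growth factor (EGF) and neuregulin family (Areg, Nrg1, Nrg4, Hbegf, Tgfa and Btc) and the 4 receptors of the ERBB family (Egfr, Erbb2, Erbb3 and Erbb4). They were taken by symbol, and all 10 are among the 32286 genes of the count table. Nuclei came from 2 regenerating mouse livers, 1 labelled wild-type and 1 labelled Cox10-/-. Cox10 encodes an enzyme of heme A synthesis that mitochondrial cytochrome c oxidase requires. Both mice carried the Cox10-floxed conditional allele and received an adeno-associated virus of serotype 8 behind the eye, AAV8-GFP or AAV8-Cre, and the labels do not say which animal received which. AAV8 mainly infects hepatocytes, so non-hepatocyte cells of the library labelled Cox10-/- may still hold an intact gene. A 70% partial hepatectomy followed 4 weeks after the virus. The protocol places the harvest 4 days after surgery, whereas the sample characteristics say 4 weeks, and the sources used here do not settle this. Livers were digested, strained at 70 µm and lysed to nuclei, of which 7000 were loaded per sample. With 1 liver per genotype no test between genotypes is possible. All intervals below are exact 95% intervals that cover counting error only, and animal, handling and genotype cannot be told apart.

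ERBB receptors are membrane tyrosine kinases that pair after binding a ligand and signal through the RAS-MAPK and PI3K-AKT pathways. EGFR binds amphiregulin, TGF-alpha, HB-EGF and betacellulin, whereas ERBB3 and ERBB4 bind neuregulins. ERBB4 also binds HB-EGF and betacellulin, ERBB2 has no known ligand of its own, and ERBB3 has little kinase activity, so both work mainly as partners. Most ligands are made as membrane-anchored precursors that proteases of the ADAM family shed. In liver, EGFR ligands are known mitogens of hepatocytes after partial hepatectomy.

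Transcripts were counted as UMIs (unique molecular identifiers, 1 per captured molecule), of which 5448 wild-type nuclei gave 17703804 (median per nucleus 2854) and 5167 Cox10-/- nuclei gave 14476400 (median per nucleus 2291). Median mitochondrially encoded shares were 12.6% and 8.92%, and 7 cell barcodes occurred in both libraries. Nuclei were clustered without the members and their pathway genes and named by marker lists, with hepatocyte-like nuclei making up 5195 (95.4%) in the wild-type library and 1744 of 5153 (33.8%) in the Cox10-/- library. The Cox10-/- library also held 1414 endothelial-like, 748 stellate-like, 618 myeloid-like and 117 lymphoid-like nuclei, against 45, 33, 40 and 18 in the wild-type library. A further cluster of 192 Cox10-/- nuclei was cholangiocyte-like, and 320 stayed unnamed. Levels are given as CPM, UMIs of a gene scaled to the same total UMIs in every population. The level of Cox10 itself was 34.7 CPM (31.9 to 37.6, 586 UMIs) in hepatocyte-like nuclei of the wild-type library and 38.8 CPM in those of the other (33.7 to 44.5, 204 UMIs). The deleted exon is not given in the sources used here, and 3' tags outside it check nothing. Cox10-/- hepatocyte-like nuclei fell mainly into a deep cluster of 771 nuclei (median 4480 UMIs) and a shallow cluster of 969 nuclei (median 1178 UMIs). Values for the deep cluster are given beside some of the pooled ones, and the others are pooled only.

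**Figure D1:**
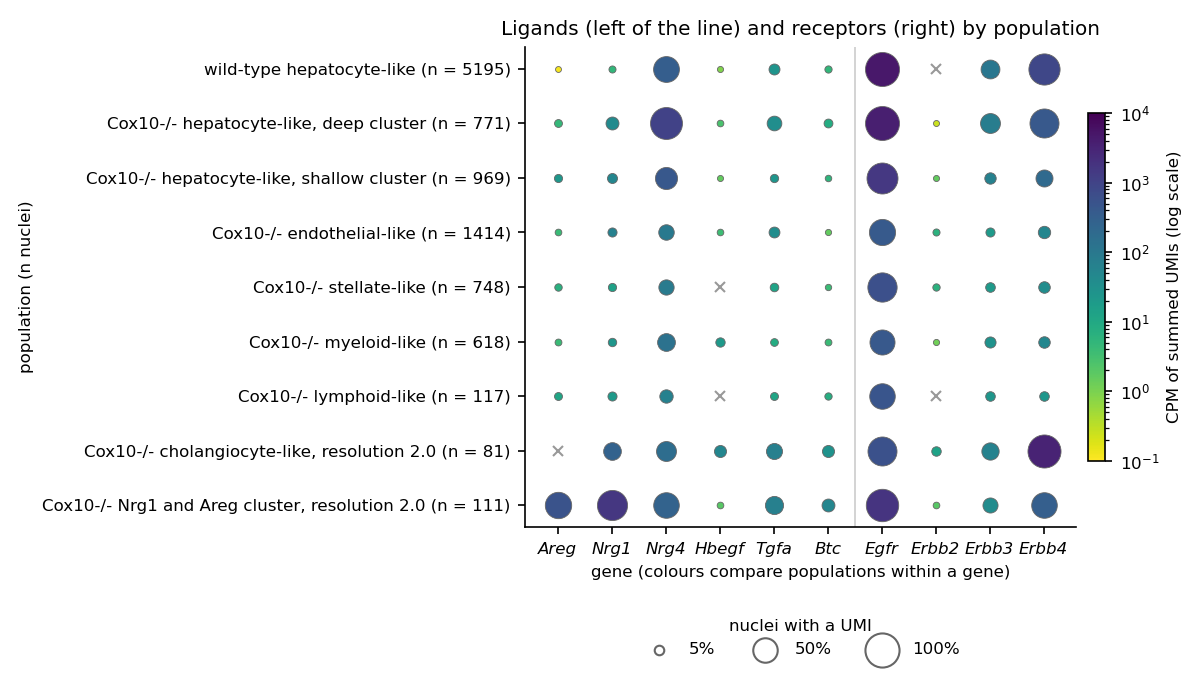
Levels of the 10 members by library and population, with colour for CPM of summed UMIs (log scale), dot size for the share of nuclei holding a UMI and crosses where no UMI was seen. In the Cox10-/- library Areg and Nrg1 stand highest in a small unnamed cluster, Erbb4 in the cholangiocyte-like cluster, and Egfr and Nrg4 in deep hepatocyte-like nuclei.

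Among the ligands, Areg and Nrg1 were concentrated in a small group of Cox10-/- nuclei. These nuclei were chosen for the 2 genes, so their Areg and Nrg1 levels describe the choice and are no finding. At the main clustering resolution of 1 the cluster with the highest summed Nrg1 and Areg was the 192-nucleus cluster. At a resolution of 2 it split into 81 cholangiocyte-like nuclei and 111 nuclei that met no naming rule, called here the Nrg1/Areg cluster. Areg, encoding amphiregulin, stood at 531 CPM in the Nrg1/Areg cluster (469 to 598, 270 UMIs) and at 6.90 CPM in the other Cox10-/- nuclei (96 UMIs). Nrg1, encoding neuregulin 1 and lying at chr8:31814551-32884029 on the minus strand, stood at 1595 CPM there (811 UMIs) and at 45.9 CPM elsewhere (638 UMIs). With 2.15% of the Cox10-/- nuclei, the cluster held 73.8% of all Areg UMIs and 55.9% of all Nrg1 UMIs of that library.

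Nrg1 was seen in 86 of the 111 nuclei (77.5%) and Areg in 65 (58.6%). Both were seen in 55 nuclei (49.5%, 39.9 to 59.2), against 7 of the other 5042 Cox10-/- nuclei (0.139%). Of all 62 Cox10-/- nuclei with a UMI of both, 88.7% thus lay in the cluster. Thinned to 1000 UMIs per nucleus, which evens out depth, 71 of the 111 nuclei still held a UMI of Nrg1 and 40 one of Areg. The cluster was chosen for both genes, so these counts and shares are a description only. In the wild-type library Areg was nearly absent, with 10 UMIs in 3 of 5448 nuclei. A single wild-type nucleus fell into the Nrg1/Areg cluster, and it held 8 of those 10 UMIs together with 11 UMIs of Nrg1.

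The start of Areg is shown because the gene has the most concentrated pattern of the ligands, and that of Btc, its neighbour on chromosome 5, because Btc was higher in the same nuclei. Areg lies at chr5:91139599-91148432 on the plus strand and Btc at chr5:91357261-91402994 on the minus strand (mm10, GENCODE M21), 209 kb apart. The 250 bases before each start are RefSeq sequence of build GRCm38.p6, at chr5:91139349-91139598 on the plus strand for Areg and chr5:91402995-91403244 on the minus strand for Btc. Capitals mark matches to any of 4 motifs searched on both strands.
Areg: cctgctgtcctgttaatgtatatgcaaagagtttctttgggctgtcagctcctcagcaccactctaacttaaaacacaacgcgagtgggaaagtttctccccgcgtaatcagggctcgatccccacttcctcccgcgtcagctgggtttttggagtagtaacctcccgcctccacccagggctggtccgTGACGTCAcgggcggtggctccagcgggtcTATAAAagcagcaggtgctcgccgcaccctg
Btc: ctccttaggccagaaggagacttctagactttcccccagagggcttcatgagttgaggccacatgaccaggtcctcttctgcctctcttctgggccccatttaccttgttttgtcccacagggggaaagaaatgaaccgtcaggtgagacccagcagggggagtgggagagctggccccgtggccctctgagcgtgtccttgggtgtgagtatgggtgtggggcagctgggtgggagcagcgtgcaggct
The Areg window holds the palindrome TGACGTCA (the consensus of cyclic AMP response elements) 61 bases before the start and TATAAA (a core promoter box) 31 bases before it, without overlap. Of 32851 such windows of 27025 genes, 1.55% hold TGACGTCA and 12.4% hold TATAAA on either strand. The other motifs searched, TGANTCA (the AP-1 site, in 6.75% of windows) and TGATGNAA (the CEBP-ATF composite site, in 3.45%), had no match in Areg, and Btc had no match to any of the 4. The windows of Nrg4, Tgfa, Egfr, Erbb2 and Erbb4 held none either. The Nrg4 window, at chr9:55283626-55283875 on the minus strand, lies inside the GENCODE M21 span of that gene and not before its outermost start. RefSeq windows were found for 7 of the 10 members and not for Nrg1, Hbegf and Erbb3.

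Besides Areg and Nrg1, 2 members were higher in the Nrg1/Areg cluster than in the other Cox10-/- nuclei. A member is called higher or lower here when the ratio is at least 2-fold with its whole interval beyond 1.5-fold and at least 20 UMIs lie in both sums together, a rule that 7.13% of 13971 genes met upward and 8.84% downward in this comparison. Btc, encoding betacellulin, stood at 51.1 CPM (26 UMIs in 13 nuclei) against 5.46 CPM, a ratio of 9.36 (5.75 to 14.8). Tgfa, encoding TGF-alpha, stood at 68.8 CPM (35 UMIs) against 27.6 CPM, a ratio of 2.49 (1.71 to 3.53). Hbegf, encoding HB-EGF, showed 1 UMI there, and Nrg4 stood at 263 CPM, a ratio of 0.656 (0.548 to 0.778) that met neither direction.

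The receptors of the Nrg1/Areg cluster did not meet the rule in either direction. Egfr stood at 1748 CPM in it (889 UMIs), a ratio of 1.15 (1.08 to 1.23) to the other Cox10-/- nuclei. Erbb4 stood at 319 CPM, a ratio of 1.31 (1.11 to 1.53), and Erbb3 at 39.3 CPM, a ratio of 0.890 (0.540 to 1.39). Erbb2 showed 1 UMI. A UMI of both Nrg1 and Erbb4 was found in 45 of the 111 nuclei (40.5%, 31.3 to 50.3), against 8.82% of deep hepatocyte-like nuclei and 2.26% of the other Cox10-/- nuclei. As the nuclei were chosen for Nrg1 and 55.0% of them held an Erbb4 UMI, this count is a description only. Relative to deep hepatocyte-like nuclei, the cluster held 47.0% of the Egfr level (43.9 to 50.3) and 75.5% of the Erbb4 level (63.8 to 88.7), beside 19.5% for the urea-cycle enzyme gene Cps1 and a median of 74.0% over the 18 hepatocyte markers.

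The markers of the Nrg1/Areg cluster met the naming rule of no lineage. All 18 hepatocyte markers were detected, at a summed 24285 CPM, against 44811 CPM in deep hepatocyte-like nuclei. All 18 were also detected in the cholangiocyte-like (23514.5 CPM), stellate-like (30663 CPM) and endothelial-like nuclei (36826 CPM) of that library. Cholangiocyte markers summed to 474 CPM with 8 of 14 detected, and the bile duct keratins Krt19 and Krt7 and the chloride channel gene Cftr were at 0. Markers summed to 82.6 CPM for endothelial (11 of 17), 317 CPM for stellate (10 of 15), 53.1 CPM for myeloid (9 of 16) and 7.87 CPM for lymphoid cells (4 of 14), and none of the 7 mesothelial markers was detected. In deep hepatocyte-like nuclei the sums were 57.3 CPM for endothelial, 212 CPM for stellate and 58.9 CPM for myeloid markers. Lymphoid markers summed to 5.79 CPM there and cholangiocyte markers to 176 CPM. All 111 nuclei remained when the highest 4% of doublet scores in each library were left out. Doublet calling did not work on these libraries, so this cannot tell whether the nuclei are doublets. The handling and immediate-early list (heat-shock genes, Fos, Atf3 and the like) summed to 2102 CPM, against 2727 CPM in deep hepatocyte-like nuclei and 940 CPM in hepatocyte-like nuclei of the wild-type library.

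Genes leading this cluster by fold, among those with at least 50 UMIs in it, were Vmn2r3, Areg, Slc7a11, Pdk4, Gm36041, Maoa, Nrg1, Acot2, Tenm4 and Igsf11. Slc7a11, the cystine importer subunit, stood at 440 CPM against 7.19 CPM, and Pdk4, a kinase that inhibits pyruvate dehydrogenase, at 930 CPM against 19.6 CPM. Maoa, a mitochondrial monoamine oxidase, stood at 511 CPM against 13.3 CPM. Vmn2r3 stood at 293 CPM, and as it belongs to a large family of similar receptor genes, its assignment is uncertain. These genes define the cluster and are given as its description. At a resolution of 1 the 192-nucleus cluster was instead led by Kcnma1, A230001M10Rik, Veph1, Ankrd1, Ppp2r2b, Clca1, Grhl2, Kcnip4, Nipal2 and Zg16.

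The cholangiocyte-like cluster had a different set of members, led by a receptor. Its 81 Cox10-/- nuclei showed all 14 cholangiocyte markers, at a summed 10031 CPM. Erbb4, at chr1:68032186-69108059 on the minus strand, stood at 3381 CPM in it (3179.8 to 3592, 1049 UMIs in 93.8% of nuclei) against 177 CPM in the other Cox10-/- nuclei, a ratio of 19.1 (17.7 to 20.5). Background was 5.81% of genes higher and 5% lower. The 9 wild-type nuclei of the same cluster stood at 3957 CPM. Among receptors Egfr went the other way, at 564 CPM and a ratio of 0.365 (0.312 to 0.423), which met the rule downward. Erbb3 stood at 64.5 CPM (20 UMIs, ratio 1.48, 0.897 to 2.30) and met neither direction, and Erbb2 showed 4 UMIs.

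Of the ligands in the cholangiocyte-like cluster, 4 met the rule upward and 2 downward. Hbegf stood at 51.6 CPM (16 UMIs in 8 nuclei), a ratio of 11.2 (6.05 to 19.6), and Btc at 29.0 CPM (9 UMIs), a ratio of 4.40 (1.95 to 8.72). Nrg1 stood at 284 CPM, a ratio of 2.94 (2.34 to 3.65), and Tgfa at 70.9 CPM, a ratio of 2.52 (1.56 to 3.87). Areg was seen in 0 of 81 nuclei, which allows a share of nuclei with a UMI of up to 3.70% by a floor of 3 nuclei and 4.45% by the exact interval. Its level was at least 2.68-fold lower than elsewhere (floor of 3 UMIs over the cluster). Those other nuclei include the 111 chosen for Nrg1 and Areg, which held 73.8% of the Areg UMIs. The downward call of Areg thus rests on that choice. Against deep hepatocyte-like nuclei the Areg interval ran from 0 to 275% of their level, so no lower level was shown there. Nrg4 stood at 174 CPM, a ratio of 0.433 (0.325 to 0.566) to nuclei that include the hepatocyte-like ones, which held 80.6% of its UMIs. It stood at 96.0 CPM in endothelial-like, 87.4 CPM in stellate-like and 130 CPM in myeloid-like nuclei.

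Set directly against the Nrg1/Areg cluster, the cholangiocyte-like cluster was 10.6-fold higher in Erbb4 (8.99 to 12.6), where 8.61% of 6050 genes were higher and 10.8% lower. Egfr was 3.10-fold lower in it (2.63 to 3.67), Nrg1 5.62-fold lower (4.51 to 7.09) and Areg at least 54.9-fold lower. Tgfa differed by a ratio of 1.03 (0.576 to 1.81), and Btc and Erbb3 also met neither direction. Nrg1 and Areg in the second cluster were chosen by level, so only the receptor and the other ligand values are independent of that choice. Pooled at a resolution of 1, the 192 nuclei carried calls for Hbegf, Tgfa, Btc and Erbb4 besides Areg and Nrg1 (background 7.51% higher and 8.02% lower), and the split assigned the Hbegf and Erbb4 calls to the cholangiocyte-like nuclei. The bar plot of the fine clusters sets these values beside those of the endothelial-like clusters.

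**Figure D2:**
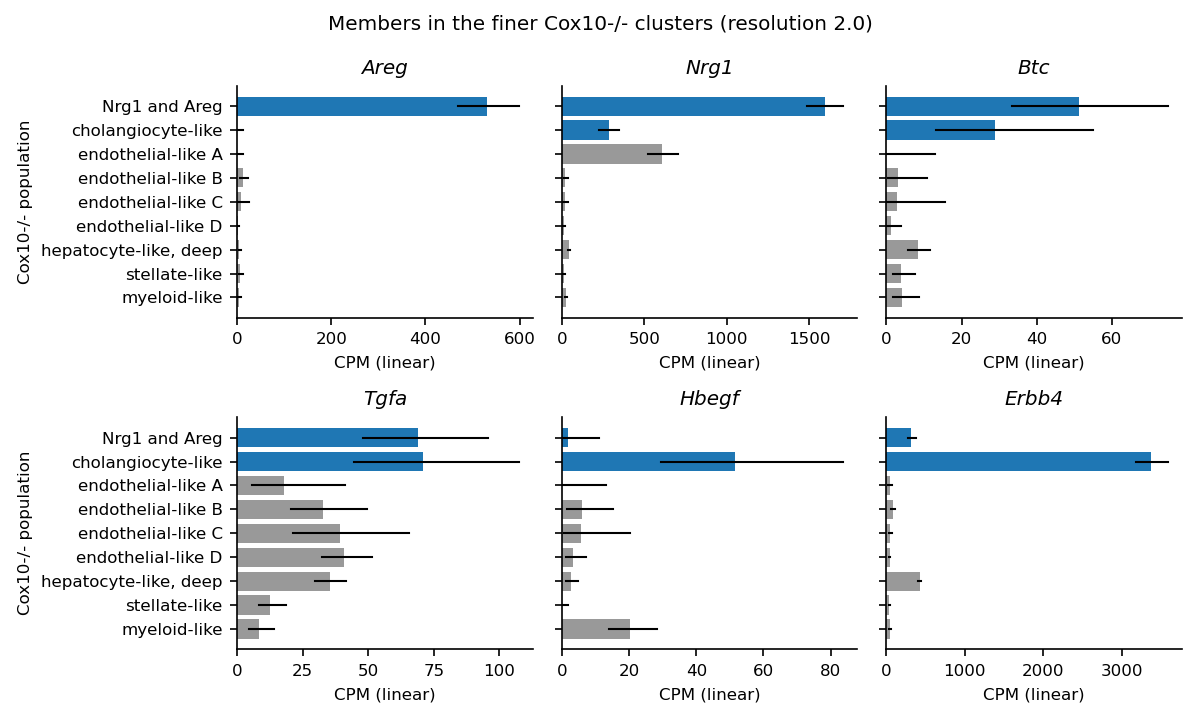
CPM of the members in fine Cox10-/- clusters at a resolution of 2, with exact 95% Poisson intervals as error bars. Areg and Nrg1 are highest in the Nrg1/Areg cluster, at 531 and 1595 CPM, Erbb4 reaches 3381 CPM in the cholangiocyte-like cluster, and 1 endothelial-like cluster holds 608 CPM of Nrg1.

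Outside the Nrg1/Areg cluster, Nrg1 UMIs were also found in endothelial-like nuclei. Over all 1414 Cox10-/- endothelial-like nuclei Nrg1 stood at 66.9 CPM (58.2 to 76.5, 211 UMIs). A cluster of 121 of them was chosen for its Nrg1 level after the values were seen, so its Nrg1 values describe that choice. It held 172 of these UMIs, at 608 CPM (520 to 706) against 13.6 CPM in the other endothelial-like nuclei. The ratio was 44.7 (31.4 to 65.0), Nrg1 was the only member called in this comparison, and background was 1.07% higher and 0.638% lower. Nrg1 was seen in 29 of the 121 nuclei (24.0%, 16.7 to 32.6), and 18 held at least 3 UMIs. Areg and Hbegf were at 0 there. The cluster was led by Ldb2, Mecom and Ntn4 and held 212 CPM of Vwf, a marker of large-vessel endothelium, and no UMI of Rspo3. Vwf and Rspo3 were picked from the endothelial markers after their values were seen. Their levels in the other endothelial-like clusters are not given here, so they name no vessel type. In the 45 wild-type endothelial-like nuclei Nrg1 stood at 101 CPM on 9 UMIs (46.1 to 192).

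Tgfa stood at 36.8 CPM in Cox10-/- endothelial-like nuclei (116 UMIs), against 10.8 CPM in stellate-, myeloid- and lymphoid-like nuclei together, a ratio of 3.41 (2.38 to 4.95). That comparison was chosen after the values were seen, and 7.2% of genes were higher and 13% lower in it. Nrg1 had a ratio of 3.70 (2.82 to 4.91), and no other member met the rule in it. Against all other named Cox10-/- nuclei, which include the hepatocyte-like ones, no member was higher in endothelial-like nuclei (background 9.66% higher and 16.5% lower). The endothelial-like Tgfa level was 104% of that in deep hepatocyte-like nuclei (80.9 to 135), above 10 of the 18 hepatocyte markers, the highest of which stood at 193% there. Tgfa stood at 36.0% of the deep hepatocyte-like level in stellate-like, 23.7% in myeloid-like and 33.2% in lymphoid-like nuclei. The marker median was 82.0% in endothelial-like, 69.3% in stellate-like, 70.3% in myeloid-like and 84.3% in lymphoid-like nuclei. The part of hepatocyte RNA in the endothelial-like Tgfa level was not tested.

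Hbegf had its highest lineage level outside the cholangiocyte-like cluster in myeloid-like nuclei. It stood at 20.2 CPM in them (14.0 to 28.3, 34 UMIs in 29 nuclei), against 3.64 CPM in the other named Cox10-/- nuclei, a ratio of 5.56 (3.43 to 8.95, background 11.1% higher and 15% lower). Myeloid-like nuclei held 41.5% of all Hbegf UMIs of that library. Hbegf was seen in 0 of 748 stellate-like nuclei and was at least 4.65-fold lower in them than in the other named nuclei. In the 40 wild-type myeloid-like nuclei Hbegf stood at 38.0 CPM on 5 UMIs. No member was higher in stellate-like nuclei (background 8.83% higher and 15% lower) or lymphoid-like nuclei (6.99% and 6.61%).

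Nrg4, which encodes a secreted neuregulin that binds ERBB4 and lies at chr9:55220222-55326844 on the minus strand, was the ligand called higher in hepatocyte-like nuclei. In the Cox10-/- library it stood at 881 CPM in them against 114 CPM in the other named nuclei, a ratio of 7.75 (7.22 to 8.33), where 10.2% of genes were higher and 25.6% lower. Hepatocyte-like nuclei held 80.6% of its UMIs. Of the receptors, Egfr had a ratio of 5.79 (5.60 to 5.99), at 3202 against 553 CPM, and Erbb3 one of 3.12 (2.63 to 3.72), at 77.6 against 24.9 CPM. Erbb4 reached 368 CPM with a ratio of 1.91 and was not called, and the compared nuclei included the cholangiocyte-like cluster, which held 29.4% of the Erbb4 UMIs of that library. Of the 60 pairs of member and lineage, 10 were higher in this way, 3 in hepatocyte-like, 1 in myeloid-like and 6 in the 192-nucleus cluster (background 7.61% higher and 7.86% lower in the last). That cluster includes the 111 nuclei chosen for Nrg1 and Areg, which are among the 6, and Areg was at 0 in the 81 cholangiocyte-like nuclei of the finer clustering.

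Most Egfr, Erbb4 and Nrg4 levels in the other lineages lay at or below the level at which hepatocyte marker transcripts were found there. In endothelial-like Cox10-/- nuclei Egfr stood at 11.0% of its level in deep hepatocyte-like nuclei, Erbb4 at 12.0% and Nrg4 at 9.42%, all below the lowest of the 18 hepatocyte markers (G6pc, 12.6%). In myeloid-like nuclei Egfr stood at 11.1%, Erbb4 at 11.4% and Nrg4 at 12.7%, again below the lowest marker (12.9%). In stellate-like nuclei Erbb4 stood at 8.90% and Nrg4 at 8.57%, below the lowest marker (11.6%). Egfr at 16.2% there exceeded 4 of the 18 markers, among them Cps1, and 72.9% of stellate-like nuclei held an Egfr UMI. Stellate-like nuclei held 601 CPM of Egfr (568 to 635), above the 409 CPM of endothelial-like (387 to 432) and the 411 CPM of myeloid-like nuclei (381 to 443), whereas Erbb4 was no higher in them. Levels below every marker cannot be told apart from hepatocyte RNA, and the stellate-like Egfr level lay under the marker median of 69.3%. Erbb3 stood at 24.6% in endothelial-like nuclei (18.5 to 32.3), above 5 of the 18 markers. Erbb4 in the cholangiocyte-like cluster stood above all 18 markers, at 801% of the hepatocyte level (741 to 866), where Cps1 stood at 11.2%.

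The same comparison limits the small wild-type lineages. Egfr stood at 65.6% of the wild-type hepatocyte level in stellate-like nuclei and at 61.6% in myeloid-like nuclei, where Cps1 stood at 69.5% and 52.7%. In the 45 wild-type endothelial-like nuclei Egfr stood at 15.8% and Cps1 at 30.1%. Receptor transcripts of those nuclei and hepatocyte RNA cannot be told apart.

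**Figure D3:**
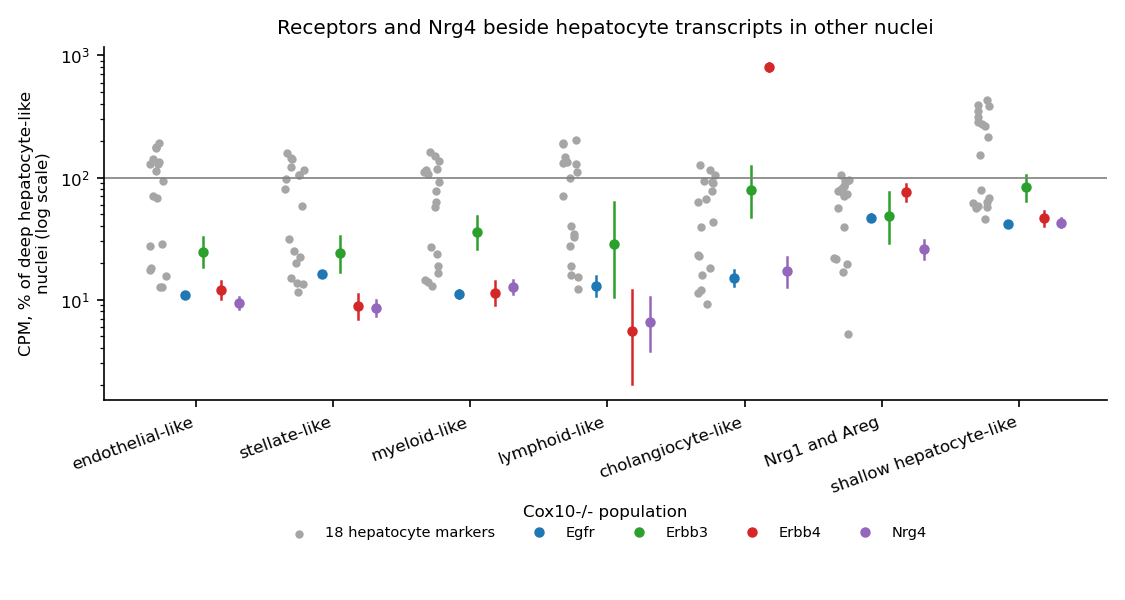
Levels of Egfr, Erbb3, Erbb4 and Nrg4 in Cox10-/- populations as a percentage of their level in deep hepatocyte-like nuclei, on a log axis, beside the 18 hepatocyte markers. Erbb4 of the cholangiocyte-like cluster, at 801%, lies above every marker, whereas Egfr of endothelial-like nuclei, at 11.0%, lies below them all.

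Erbb2 was scarce in every population. It showed 44 UMIs in the Cox10-/- library, 45.5% of them in endothelial-like, 29.5% in stellate-like and 6.82% in hepatocyte-like nuclei. Those lineages made up 27.4%, 14.5% and 33.8% of the nuclei of that library. The cholangiocyte-like cluster, with 1.57% of the nuclei, held 4 of these UMIs (9.09%). The Erbb2 level was 6.34 CPM in endothelial-like nuclei (3.87 to 9.79) and 6.34 CPM in stellate-like nuclei (3.38 to 10.8), so these did not differ beyond their intervals. The endothelial ratio to the other named nuclei was 2.77 (1.44 to 5.28), short of the rule. In the wild-type library Erbb2 showed 1 UMI, and 0 of 5195 hepatocyte-like nuclei held one.

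Between the libraries, hepatocyte-like nuclei of the Cox10-/- liver held more Nrg4 and Nrg1 and less Erbb4 than wild-type ones. Areg was called higher too, but its level in the deep cluster was no higher than in stellate-, myeloid- and lymphoid-like nuclei together. Of the 10 members 9 passed the 20-UMI filter, 3 were called higher and 1 lower, where 8.82% of 12561 genes were higher and 3.34% lower and the median log2 ratio of all genes was -0.03. Nrg4 stood at 336 CPM in wild-type nuclei (328 to 345, 5685 UMIs) and 881 CPM in Cox10-/- nuclei (856 to 907, 4631 UMIs). The ratio was 2.62 (2.52 to 2.72) and was 3.03 (2.91 to 3.16) in deep nuclei alone, where 4.48% of genes were higher and 2.79% lower. Thinned to 1000 UMIs, Nrg4 was seen in 27.3% of wild-type and 54.2% of deep Cox10-/- nuclei (unthinned 56.0% and 87.4%).

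Nrg1 stood at 5.03 CPM in wild-type hepatocyte-like nuclei (4.02 to 6.22, 85 UMIs) and 44.0 CPM in Cox10-/- ones (38.5 to 50.01, 231 UMIs), a ratio of 8.74 (6.79 to 11.3). In the deep cluster alone the ratio was 8.30 (6.36 to 10.9). Deep nuclei with a UMI made up 11.8% (3.25% when thinned), against 2.94% of stellate-like nuclei (1.07% when thinned). Within the Cox10-/- library, Nrg1 was 2.31-fold higher in deep hepatocyte-like nuclei than in stellate-, myeloid- and lymphoid-like nuclei together (1.74 to 3.09), a comparison chosen after the values were seen in which 13.9% of genes were higher and 23.7% lower.

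Areg showed 2 UMIs in wild-type hepatocyte-like nuclei (0.118 CPM) and 47 UMIs in Cox10-/- ones (8.94 CPM, 6.57 to 11.9), a ratio of 75.6 (19.8 to 643) that met the rule. These 47 UMIs lay in 47 nuclei. Without the shallow cluster the ratio was 40.4 (9.75 to 358, 19 UMIs). The deep cluster held 4.78 CPM of Areg, against 6.02 CPM in stellate-, myeloid- and lymphoid-like nuclei, a ratio of 0.793 (0.411 to 1.51). Areg was seen in 2.46% of deep hepatocyte-like nuclei and 1.87% of stellate-like nuclei, whose median depths were 4480 and 2575 UMIs, and in 0.779% and 0.802% after thinning. After thinning the deep hepatocyte-like share was thus no higher than the stellate-like one, and expression and background of that library cannot be told apart. The shallow cluster stood at 22.2 CPM, 4.65-fold above the deep one (2.51 to 8.82, background 11.8% higher and 11.9% lower). Marker sums in the shallow and deep clusters were 184 and 57.3 CPM for endothelial and 549 and 212 CPM for stellate cells. They were 206 and 58.9 CPM for myeloid and 18.3 and 5.79 CPM for lymphoid cells. Cholangiocyte markers went the other way, at 158 and 176 CPM, and hepatocyte markers summed to 85650 and 44811 CPM. The part of these marker transcripts and of depth in the shallow value was not tested.

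Tgfa, Btc and Hbegf met neither direction between the libraries. Tgfa stood at 25.4 CPM in wild-type (430 UMIs) and 32.7 CPM in Cox10-/- hepatocyte-like nuclei (172 UMIs), a ratio of 1.29 (1.07 to 1.54). Btc had a ratio of 1.46 (0.980 to 2.15) on 88 and 40 UMIs. Hbegf had a ratio of 2.79 (1.22 to 6.28) on 15 and 13 UMIs. Its interval excludes 1, but the lower bound lay under 1.5-fold, so it was not called.

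Among the receptors, Erbb4 stood at 880 CPM in wild-type hepatocyte-like nuclei (865 to 894, 14868 UMIs) and at 368 CPM in Cox10-/- ones (351 to 384, 1932 UMIs). It was 2.39-fold lower (2.28 to 2.51), and the ratio in the deep cluster alone was 0.480 (0.456 to 0.505). Thinned to 1000 UMIs, Erbb4 was seen in 53.1% of wild-type and 31.3% of deep Cox10-/- nuclei (unthinned 83.2% and 71.7%).

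Egfr, at chr11:16752203-16918158 on the plus strand, encodes the receptor of most of these ligands and stood at 4763 CPM in wild-type and 3202 CPM in Cox10-/- hepatocyte-like nuclei, a ratio of 0.672 (0.661 to 0.683). The interval excludes 1, but the difference was under 2-fold and was not called. In the deep cluster alone the Egfr ratio was 0.781 (0.767 to 0.795). Egfr was seen in 99.6% of wild-type and 99.4% of deep Cox10-/- nuclei. Egfros, an antisense gene, lies inside Egfr at chr11:16815431-16830702 on the minus strand and held 105 CPM in wild-type hepatocyte-like nuclei. Strand use in counting is not given in the sources used here, so the split between both genes is uncertain. Erbb3 stood at 109 and 77.6 CPM, a ratio of 0.712 (0.638 to 0.793), not called. Erbb2 had 3 UMIs in all and was below the filter.

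**Figure D4:**
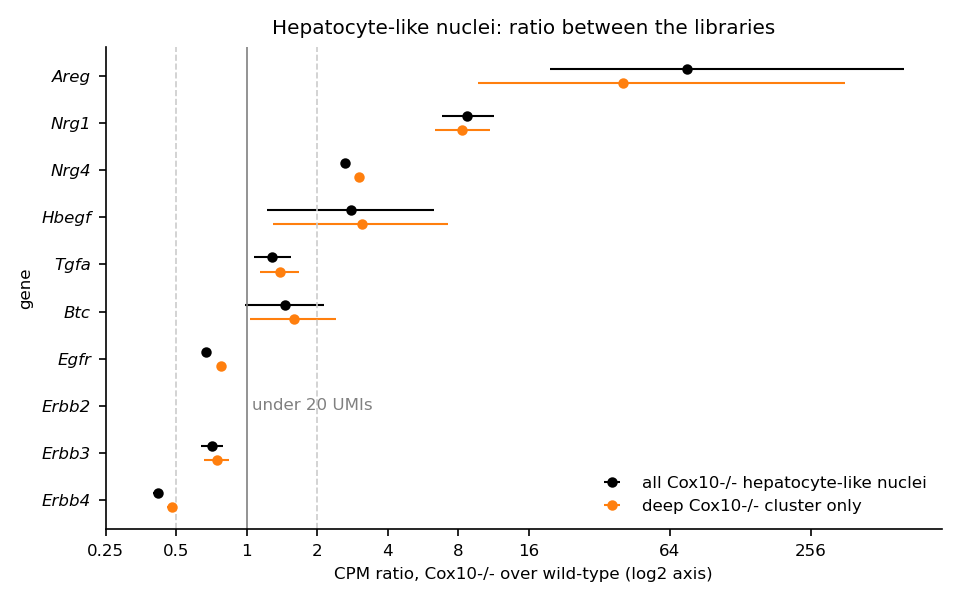
Ratio of Cox10-/- over wild-type CPM in hepatocyte-like nuclei for the 9 members that passed the filter, on a log axis, with exact 95% conditional binomial intervals, for all and for deep Cox10-/- nuclei. Nrg4 (2.62), Nrg1 (8.74) and Areg (75.6) lie above the 2-fold line and Erbb4 (0.418) below its inverse.

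Quality measures moved with the library. The summed handling and immediate-early list stood at 940 CPM in wild-type and 2492 CPM in Cox10-/- hepatocyte-like nuclei, with 10 of its 13 measured genes called higher. Markers of other cell types summed higher in Cox10-/- hepatocyte-like nuclei: 87.7 against 31.5 CPM for endothelial, 293 against 70.0 CPM for stellate, 94.2 against 11.2 CPM for myeloid and 172 against 83.2 CPM for cholangiocyte cells. Of the 14 cholangiocyte markers 11 were detected in the Cox10-/- nuclei and Krt7, Cftr and Kcne3 were at 0. Their part in the member ratios was not tested.

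Within hepatocyte-like nuclei, Nrg4 was lower by the rule in the Glul-rich cluster of the Cox10-/- library and was not called in that of the wild-type library. A cluster rich in Glul, the glutamine synthetase gene of hepatocytes around the central vein, was compared with the rest after its values were seen. In the wild-type library (421 nuclei) Nrg4 had a ratio of 0.608 (0.547 to 0.674), not called, and Nrg1 was seen in 0 of these nuclei against 85 UMIs in the rest, at least 3.43-fold lower (background 1.17% higher and 0.826% lower). Tgfa had a ratio of 1.89 there (1.46 to 2.41), and Egfr and Erbb4 had ratios of 1.004 and 0.964. In the Cox10-/- library (75 nuclei) Nrg4 stood at 352 CPM against 1092 CPM in the other deep nuclei, a ratio of 0.323 (0.270 to 0.382) that met the rule downward (background 1.15% and 0.559%). Nrg1 had a ratio of 0.343 (0.124 to 0.763), Erbb4 one of 0.586 and Erbb3 one of 1.56, none of them called.

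Levels of Erbb4, Egfr and Nrg4 were also listed by hepatocyte-like cluster of at least 50 nuclei. The share of all genes that separate the libraries by cluster was not computed, so these values are a description only. Erbb4 ran from 790 to 970 CPM over the wild-type clusters, taken at a resolution of 1, and was 437 and 258 CPM in the deep Cox10-/- clusters, taken at 2. At a resolution of 2 the wild-type clusters ran from 713 to 1012 CPM for Erbb4 and from 4164 to 5319 CPM for Egfr. A small cluster of 9 Cox10-/- and 3 wild-type nuclei stood at 799 CPM of Erbb4 over both libraries, inside the wild-type range, and at 3103 CPM of Egfr. At a resolution of 1 Egfr ran from 4439 to 5138 CPM in wild-type clusters, against 3737 and 3409 CPM in the deep Cox10-/- ones. Nrg4 ran from 213 to 392 CPM in wild-type clusters, and the Glul-rich Cox10-/- cluster at 352 CPM fell inside that range. Clusters of 1 library share their animal and are not replicates.

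**Figure D5:**
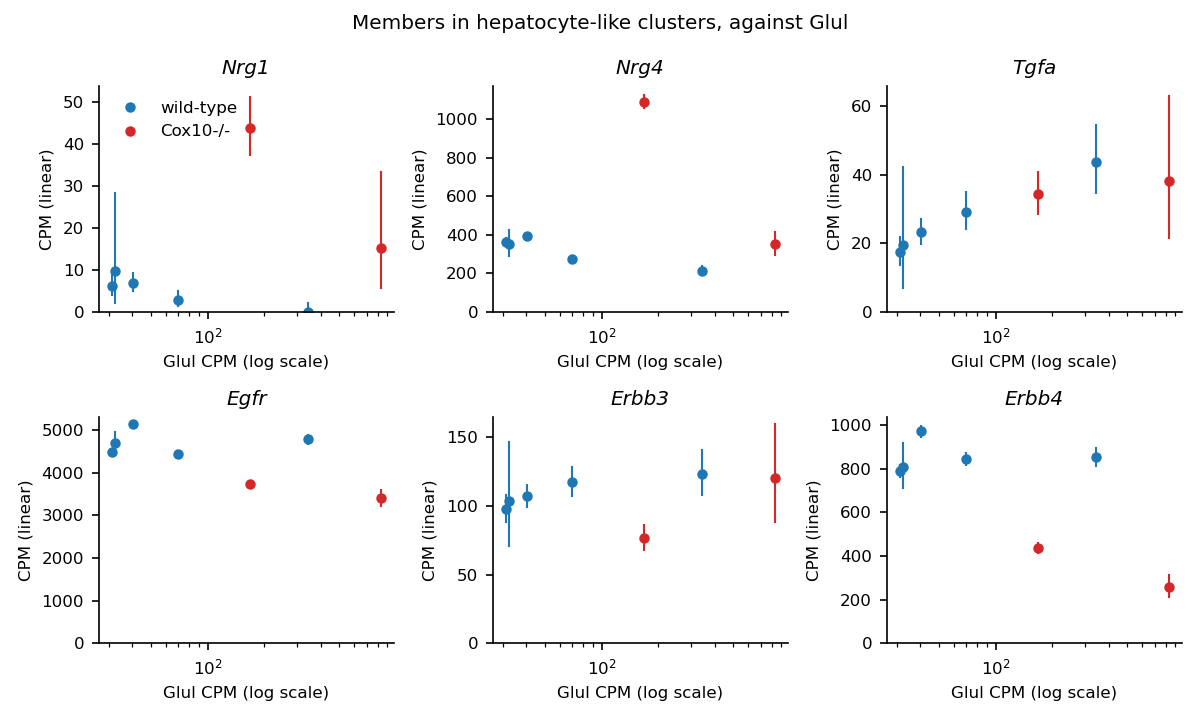
CPM of 6 members in hepatocyte-like clusters of at least 50 nuclei in each library, against the Glul level of the cluster on a log axis, with exact 95% Poisson intervals as vertical lines and the shallow Cox10-/- cluster left out. Erbb4 lies between 790 and 970 CPM in the wild-type clusters and at 437 and 258 CPM in the deep Cox10-/- clusters.

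The other genes of the pathway mostly stayed under the rule between the libraries. Of 79 listed genes 62 were measured in hepatocyte-like nuclei, 7 were higher (11.3%) and 2 lower (3.23%), near the background of 8.82% and 3.34%, with a median log2 ratio of -0.04 against -0.03 over all genes. The other ligand list had 1 measured gene of 5, Egf, at 5.14 CPM in Cox10-/- nuclei and a ratio of 0.905 (0.567 to 1.40). All 9 genes of ligand shedding were measured (median log2 ratio 0.12), and Timp3, an inhibitor of shedding proteases, was 3.28-fold higher (2.16 to 5.00). In the deep cluster alone its ratio was 2.39 (1.43 to 3.91), which was not called. Of the feedback genes 17 of 20 were measured (median log2 ratio -0.12). The MAP kinase phosphatase gene Dusp4 was 2.48-fold higher (1.57 to 3.89), and Spry4, an inhibitor of receptor signalling, had a ratio of 0.375 (0.262 to 0.523) and was lower. Dusp4 also stood at 175 CPM in the Nrg1/Areg cluster, against 7.55 CPM in deep hepatocyte-like nuclei. No call or share of all genes goes with these levels. Other feedback genes are not given for that cluster, so the Dusp4 levels are a description only.

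Of the transduction genes 28 of 29 were measured (median log2 ratio -0.03) and 2 were higher, the kinase gene Mapk3 at 3.06-fold (2.11 to 4.44) and the adaptor gene Nck2 at 2.56-fold (1.82 to 3.58). In the deep cluster alone Mapk3 had a ratio of 2.06 (1.28 to 3.23) and was not called, whereas Nck2 was 2.77-fold higher (1.93 to 3.94). Of the 16 response genes, targets known to follow growth factor signalling, only 7 were measured (median log2 ratio 0.90), 3 higher and 1 lower (42.9% and 14.3%, against the same background of 8.82% and 3.34%). Ccnd1, the cyclin D1 gene, was 13.6-fold higher (9.91 to 19.0) and Dusp1 3.24-fold higher (3.01 to 3.48). In the deep cluster alone their ratios were 10.8 (7.74 to 15.4) and 3.05 (2.81 to 3.30). Egr1 was the other higher gene, named after its value was seen, and Phlda1 was lower at a ratio of 0.194 (0.168 to 0.224). Dusp1 and Egr1 are also immediate-early genes, as are Fos and Atf3 of the handling list.

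Over 15 sums of cluster and library with at least 50 nuclei, the genes most like Egfr by Pearson r of log2(CPM + 1) were Ghr, the growth hormone receptor gene (0.994), Dhtkd1, Slc25a42, Pbld1 and Sec16b (0.986). Those most like Erbb3 were Gucd1 (0.991), Dpys, Nox4, Mia2 and Rcl1 (0.986). For Areg they were Grina (0.921), Maoa, Gpnmb, Sars and Nupr1 (0.900). For Nrg1 they were 1700017B05Rik (0.905), Bloc1s4, Prdm16, Gpat3 and Spp1 (0.881). The 15 points share libraries and depth and 11711 genes were compared, so these values are a description only.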

How the data were processed

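Nuclear RNA was measured in 1 library per genotype, both made with a 10x Chromium 3' kit. The table deposited by the authors holds raw UMI counts per gene and nucleus, with no normalization. Per the submitters' processing notes, Cell Ranger 7.0 and mm10 were used. Strand setting, annotation, intronic reads and the nucleus filter are not stated in the labels. The deposited nuclei hold 601 to 3999 genes each.

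All deposited nuclei were used except doublets called by Scrublet (expected rate 5%), which marked 0 wild-type and 14 Cox10-/- nuclei (0.271%) and so has not worked. Both libraries were clustered together without integration with scanpy 1.11.5 and igraph 0.11.9 in Python 3.11.15. After log scaling to 10000 counts per nucleus, the 2000 most variable genes, without members and pathway genes, gave 30 principal components and 15 neighbours for Leiden clustering (seed 1) at a resolution of 1, and at 0.5 and 2 as alternatives. Clusters were named from marker lists, by thresholds chosen once values were known. Names other than hepatocyte required marker excess (log2) of 2 or more, a lead of 1.5 over other lists, at least 3 markers raised 4-fold, and Cps1 under 50% of the hepatocyte level. A hepatocyte name needed an excess over 0.6 and under 1 for every other list.

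UMIs were summed by library and population and divided by the sum's total (CPM). Intervals at 95% are Poisson for sums, Clopper-Pearson for shares and conditional binomial for ratios. Log2 ratios used a prior of 0.5 UMI, and a count of 0 a floor of 3. A gene was called at 2-fold or more with its interval beyond 1.5-fold and at least 20 UMIs. The ratio intervals and the call rule were tested on simulated Poisson counts, whereas clustering, naming and thinning were not. Named are all members, up to 3 called genes per pathway list with the largest change (otherwise the one with most UMIs), the 5 genes most like Areg, Nrg1, Egfr and Erbb3, and the 10 leading genes of the Nrg1/Areg cluster. Cps1, G6pc, Vwf, Rspo3, Glul, Egfros and Egr1 were named after their values were seen. TMM factors came from edgeR 4.0.16 and median-of-ratios factors from DESeq2 1.42.0, for alternatives only. Coordinates come from GENCODE M21, which matched 31424 of 32286 symbols. The members and lists were chosen with earlier results of these data known.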

Additional observations from a re-analysis of the deposited data

How the results depend on the processing

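In hepatocyte-like nuclei 4 members were called between the libraries, and 3 to 4 over 12 alternatives. The alternative with 3 required at least 100 UMIs, so that Areg was not tested. The ratios of the 9 measured members kept their side of 1, at 40.4 to 98.5 for Areg, 8.27 to 11.0 for Nrg1, 2.04 to 3.03 for Nrg4, 0.520 to 0.781 for Egfr and 0.341 to 0.480 for Erbb4. TMM, median-of-ratios and mitochondria-free scaling shifted all log2 ratios by -0.04, -0.06 and -0.08. The count of pathway genes ran from 7 to 12 around 9, and that of member and lineage pairs from 8 to 12 around 10. The count of members called higher in the cluster richest in Nrg1 and Areg, 4 at a resolution of 1, was 2 with nuclei of at most 10% mitochondrially encoded UMIs, 2 at a resolution of 2, and 1 among the 62 nuclei with a UMI of both genes. Leaving out the top 4% of doublet scores gave 0, and the richest cluster was then 23 endothelial-like nuclei (Nrg1 1827 CPM, Areg 0); the 184-nucleus cluster that held all 111 Nrg1/Areg nuclei then had 4. It was 4 in the 3 other alternatives. Of 40 shares of nuclei with a UMI, 34 fell below their interval when thinned to 1000 UMIs, as fewer UMIs were read. No paired analysis was possible because each group has 1 library. Leaving out a replicate was not possible for the same reason. Erbb2 had too few UMIs to be compared in hepatocyte-like nuclei.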
